A study of Rattus norvegicus with 12 samples.

Results

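Trefoil peptides and other products of mucus-secreting cells were followed across 12 bead arrays of rat duodenal mucosa. The members were 9 genes chosen by name, Tff1, Tff2, Tff3, Muc2, Muc13, Clca1, Agr2, Fcgbp and Spdef, and each was read from its brightest probe. Of the 9, 5 had a named probe, among 13337 genes with a named probe in all, namely Tff1, Tff2, Tff3, Clca1 and Agr2, each with 1 probe. Muc2, Muc13, Fcgbp and Spdef had no named probe and were not analysed here.

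Swimming rats were set against sedentary control rats, with 6 arrays in each group. Every rat was a 9 weeks old female of the outbred Sprague-Dawley strain. The swimming rats were first trained for 1 week to reach 1 hour of unbroken swimming per day, and swam on 5 days per week in a protocol of 2 weeks. The control rats were kept in a pool without exercise for the same 2 weeks, and the water was at 30 to 32 °C. RNA came from cells scraped from 10 cm of duodenum, so it holds every cell type that the slide removed. The comparison addresses the effect of endurance swimming on transcripts of the duodenal epithelium. In such bulk samples, fewer cells of a type and less RNA per cell cannot be told apart.

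Goblet cells are single mucus-secreting cells of the intestinal lining, and their granules hold the gel-forming mucin Muc2 together with Tff3. Brunner glands lie under the mucosa of the first part of the duodenum and secrete an alkaline mucus that contains Tff2. Tff1 is the trefoil peptide of the surface mucous cells of the stomach. Trefoil peptides are small secreted proteins held together by disulphide bonds, and they are known for helping epithelium to close over damage. In the rat assembly GRCr8 the 3 trefoil genes are direct neighbours on chromosome 20, in the order Tff3, Tff2, Tff1.

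Several arrays stood apart and touch every result below. The array labelled swimming 5 lacked a defining enterocyte enzyme of the duodenum. Its log2 intensity for Alpi, intestinal alkaline phosphatase, was 5.997, against 14.67 to 15.03 in the other 11 arrays. It read 14.93 for Car1, a carbonic anhydrase of the large intestine, against 6.70 to 8.82. Of 10 measured enterocyte markers 7 lay more than 1 log2 below every other array, where 1.9% of all probes did. Of 6 measured large intestine markers 3 lay more than 1 log2 above, where 1.62% of all probes did. The large intestine markers Aqp8, Hoxb13 and Scnn1g lay within the range of the other arrays. In addition, 3 pairs of arrays were nearly identical: control 3 with swimming 3, control 4 with control 6, and swimming 4 with swimming 6. Within these pairs the members differed by at most 0.19 log2 for Tff1, 0.086 for Tff2, 0.062 for Tff3, 0.10 for Clca1 and 0.097 for Agr2. The pairs within a group were averaged for the Tff2 group means and SD (n = 5 samples per group). Unless stated otherwise, fitted differences, ratios and other group averages used all 12 arrays. Comparisons with swimming 5 counted each of the other 11 arrays, so the SD of ratios and of those arrays treats near-identical arrays as separate. Raw array medians lay between 62.7 and 88.8, and the number of arrays limits the precision.

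None of the members was called when swimming rats were compared with control rats. Of 5 members 0 were called by limma (adjusted p under 0.05, adjusted over all 22523 probes), where 0.0% of all probes were called. At an unadjusted p under 0.05 there was 1 member, Tff2, against 4.78% of all probes. As fitted differences, 4 members were higher and 1 was lower in swimming rats, with a median of 0.36 log2, while 49.4% of all probes were higher, with a median of -0.0015. In 0 of 5 members did the swimming arrays lie entirely on 1 side of the control arrays. Over all probes 0.0577% lay wholly above and 0.124% wholly below.

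Tff2, the trefoil peptide of Brunner glands and of the pyloric and neck glands of the stomach, had the largest fitted difference of the members. Its log2 intensity was 9.81 at the lowest, 10.90 at the median and 11.80 at the highest in the 6 swimming arrays, against 7.38, 9.36 and 10.85 in the 6 control arrays. Swimming 1 read highest of all, and control 4, control 5 and control 6 read lowest, while control 1, control 2 and control 3 lay within the swimming range. In raw signal the 6 swimming arrays spanned 1108 to 4012 and the 6 control arrays 128 to 2207.

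The Tff2 mean was 10.79 ± 0.76 in swimming rats and 9.44 ± 1.35 in control rats (SD, n = 5 each). The fitted difference was 1.46 log2 (SE 0.52, 95% interval 0.34 to 2.58), a fold of 2.75, and only 0.138% of all probes differed by more than 1 log2 upward. All 6 swimming arrays lay above the control mean and 4 lay above every control array. These 4 were swimming 1, swimming 5 and the near-identical swimming 4 and swimming 6. Swimming 6 read 10.86, just above control 2 at 10.85. The share of all probes with such a count was not measured. The limma p was 0.0147 unadjusted and 0.911 adjusted over all probes, so Tff2 is not called. The difference was 1.40 without swimming 5 (interval 0.22 to 2.57). In the restricted comparison of 3 swimming with 4 control samples, which leaves out swimming 5 and both arrays of the pair that spans the groups, it was 1.60 (interval -0.24 to 3.44). Leaving out 1 array gave between 1.07, without control 5, and 1.76, without control 2. Of 5 listed Brunner gland genes 3 were measured, and all 3 read higher in swimming rats with 0 called. Beside Tff2 these were Egf, a growth factor made by these glands in rodents (0.57 with all arrays and 0.11 without swimming 5), and the water channel Aqp5 (0.039), which was dimmer than the median probe. In the arrays other than swimming 5, Egf read 6.16 to 6.71, close to the mean of the median probe, 6.36.

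Tff1 gave 6.99 at the lowest, 8.28 at the median and 9.17 at the highest in swimming arrays, against 7.02, 7.83 and 9.09 in control arrays. The groups overlapped over nearly their whole range. The near-identical swimming 3 and control 3 read 9.17 and 9.09, swimming 1 read 9.05, and the lowest arrays were swimming 5, control 4 and control 6. The fitted difference was 0.36 log2 (SE 0.42, interval -0.56 to 1.28), with a limma adjusted p of 0.920. It was 0.61 without swimming 5 (interval -0.22 to 1.43). Tff1 was brighter than 68.9 to 85.9% of the probes of its array, so its low values lay closer to the dim end of the scale than those of the other members, and differences there understate a change in RNA. The same limit touches the lowest Tff2 value, 7.38 in control 5, which was brighter than 73.2% of the probes of its array.

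The Tff1 values were accompanied by those of the gastrokines, secreted proteins of the surface mucous cells of the stomach. Gkn1 read 9.60 in swimming 3, 8.89 in swimming 1 and 9.61 in control 3, and between 6.01 and 7.61 in the other 9 arrays. Gkn2 read 8.94 in swimming 3, 8.15 in swimming 1 and 8.83 in control 3, and between 6.25 and 7.33 in the others. The 3 arrays with the highest Tff1 were thus the 3 with the highest Gkn1 and Gkn2. All 3 measured genes of the stomach list of 5 read higher in swimming rats without being called, and their mean ranged from 6.43 to 9.24 in swimming arrays and from 6.50 to 9.18 in control arrays. Of the arrays with low Tff2, control 4, control 5 and control 6 had stomach list means of 6.50, 6.66 and 6.61. Swimming 5 had the lowest stomach list mean, 6.43, with a Tff2 of 11.13. Swimming 3 and control 3 had the highest, 9.24 and 9.18, with a Tff2 of 10.31 and 10.24. Digestive enzyme genes of the pancreas averaged 10.79 in swimming 2, 9.54 in swimming 3 and 9.56 in control 3, against 6.65 to 7.80 elsewhere. All 8 pancreas genes read higher in swimming rats, by a median of 0.81 log2, and all 3 red blood cell genes read lower, by a median of -0.98, with 0 called in either list. Without swimming 5 these medians were 1.06 and -0.62. Of the red blood cell genes, Alas2 (-0.022) was dimmer than the median probe. Stroma and smooth muscle genes averaged 8.23 in swimming 1, the array with the highest Tff2, against 8.14 in control 2, 6.95 in control 4, 7.41 in control 5 and 6.83 in control 6. Of 8 measured stroma genes, 6 read higher in swimming rats with all arrays and 7 without swimming 5 (median 0.25), with 0 called. The part of stomach, pancreas, blood or stroma cells in the Tff1 and Tff2 values was not tested.

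**Figure D1:**
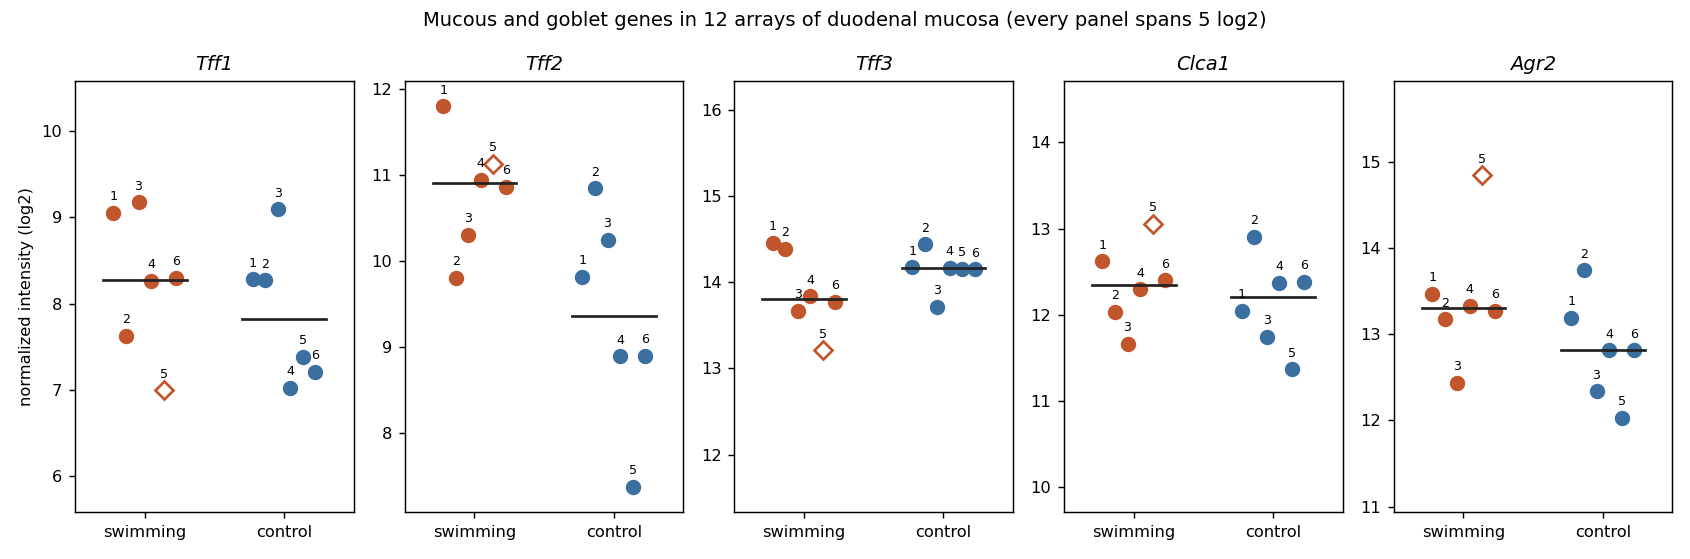
Normalized log2 intensity of the 5 measured members in the 6 swimming arrays (left of each panel) and the 6 control arrays (right), with the replicate number beside each point and the group median as a line; the open diamond is swimming 5. Tff2 runs from 7.38 to 11.80 and its lowest 3 arrays are controls, while Tff3 stays between 13.21 and 14.46.

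Tff3, the trefoil peptide of goblet cells, varied least of the members. It gave 13.21 at the lowest, 13.81 at the median and 14.46 at the highest in swimming arrays, against 13.71, 14.16 and 14.44 in control arrays. Swimming 5 was the lowest and control 4, control 5 and control 6 lay within 0.014 of each other. The fitted difference was -0.24 log2 (SE 0.20, interval -0.67 to 0.18; limma adjusted p = 0.911). Leaving out swimming 5 gave -0.11, and the restricted comparison gave -0.013 (interval -0.39 to 0.37).

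Clca1, a metalloprotease that goblet cells secrete into mucus, gave 11.66 at the lowest, 12.35 at the median and 13.06 at the highest in swimming arrays, against 11.37, 12.21 and 12.90 in control arrays. The fitted difference was 0.21 log2 (SE 0.27, interval -0.37 to 0.79; limma adjusted p = 0.922), and 0.066 without swimming 5. The 2 groups overlapped almost entirely.

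Agr2, a protein disulphide isomerase of the endoplasmic reticulum that mucin folding needs, gave 12.44 at the lowest, 13.30 at the median and 14.84 at the highest in swimming arrays, against 12.03, 12.81 and 13.74 in control arrays. Swimming 5 alone lay above every control array. The fitted difference was 0.60 log2 (SE 0.37, interval -0.19 to 1.39; limma adjusted p = 0.911) and 0.31 without swimming 5, so this 1 array moved it by more than 1.5 times.

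Promoters are shown for the 3 goblet members, so that the start regions of the genes set against Tff2 can be read side by side. They come from RefSeq on GRCr8, hold 300 bases around the annotated start, and are written 5′ to 3′ on the strand of the gene. Of the 5 measured members, 3 had an entry, and Tff1 and Tff2 had none. Capitals mark matches on either strand. The TATA box was searched as TATAAA. Forkhead factors of the FOXA family, which act in goblet cells, were searched as TGTTTAC or, with another spelling, as TGTTTGC. Factors of the GATA family, regulators of the proximal intestine, were searched as AGATAA or, with another spelling, as TGATAA. Factors of the KLF family were searched as CCACCC, and the core of the ETS family, to which Spdef belongs, as AGGAAG. The intestinal CDX factors were searched as TTTATTG, and the E-box of basic helix-loop-helix factors as CAGCTG. No matches overlap. The windows are chr20:9199284-9199583 on the minus strand for Tff3, chr2:236624665-236624964 on the minus strand for Clca1 and chr6:58435658-58435957 on the plus strand for Agr2.
Tff3: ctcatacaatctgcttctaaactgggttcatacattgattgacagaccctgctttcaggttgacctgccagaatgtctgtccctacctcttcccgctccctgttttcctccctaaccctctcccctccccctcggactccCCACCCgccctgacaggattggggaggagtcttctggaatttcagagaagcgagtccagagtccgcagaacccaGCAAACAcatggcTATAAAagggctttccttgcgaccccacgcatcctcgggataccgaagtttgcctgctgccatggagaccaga
Clca1: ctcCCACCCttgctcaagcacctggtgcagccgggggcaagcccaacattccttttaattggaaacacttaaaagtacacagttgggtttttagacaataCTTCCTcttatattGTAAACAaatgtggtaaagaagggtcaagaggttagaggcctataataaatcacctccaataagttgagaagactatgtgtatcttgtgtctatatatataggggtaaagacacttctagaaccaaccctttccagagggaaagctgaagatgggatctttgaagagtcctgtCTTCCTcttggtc
Agr2: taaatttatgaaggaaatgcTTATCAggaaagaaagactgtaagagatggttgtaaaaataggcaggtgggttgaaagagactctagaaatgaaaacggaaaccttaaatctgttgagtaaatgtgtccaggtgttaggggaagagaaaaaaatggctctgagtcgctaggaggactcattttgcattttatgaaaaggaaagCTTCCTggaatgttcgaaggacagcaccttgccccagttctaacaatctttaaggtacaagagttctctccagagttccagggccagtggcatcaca

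The Tff3 window held TATAAA at -23, counted in bases from the annotated start at 0, a TGTTTGC match at -36 and CCACCC at -110. The Clca1 window held a TGTTTAC match at -136, CCACCC at -247 and AGGAAG matches at -150 and 37, and the Agr2 window held a TGATAA match at -230 and an AGGAAG match at -47. No motif was shared by all 3 windows. Of 33469 rat promoter windows of the same length, 14.2% held TATAAA, 3.78% TGTTTAC, 4.88% TGTTTGC, 11.6% AGATAA and 9.03% TGATAA. The letters CCACCC stood in 29.4%, AGGAAG in 34.5%, TTTATTG in 4.57% and CAGCTG in 15.1%. These matches describe the letters only.

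With all arrays, Tff2 was higher relative to Tff3 and to Clca1 in swimming than in control rats. Both calls held when the background correction or the normalization was changed. They were lost with near-identical pairs averaged, in the restricted comparison and in 8 of 12 fits without 1 array. The differences stayed of similar size. The log2 ratio of Tff2 to each goblet gene was compared within each array. A ratio of 2 probes has no meaning as a level, so only its change between groups is given. Relative to Tff3, Tff2 was 1.70 log2 higher in swimming than in control rats, with ratios of -3.08 ± 0.84 and -4.79 ± 1.24 (SD, 6 arrays each), above the control mean in 6 of 6 swimming arrays and above every control array in 5. The exact permutation test over 924 assignments gave p = 0.0195, two-sided, and 0.0357 adjusted over the 3 ratios. Relative to Clca1 it was 1.25 higher in swimming rats (exact permutation p = 0.0238, adjusted 0.0357), above the control mean in 6 of 6 and above every control array in 3. Relative to Agr2 it was 0.86 higher (exact permutation p = 0.108, adjusted 0.108), above the control mean in 5 of 6. All these counts of arrays treat near-identical arrays as separate.

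The ratios to Tff3 and Clca1 lost the call in each of the following settings, which also have fewer samples. With near-identical pairs within a group averaged, an alternative chosen after seeing the data, the differences were 1.57 for Tff3 and 1.10 for Clca1 (exact permutation p = 0.0635 each, adjusted 0.0952, 5 samples per group). In the restricted comparison they were 1.61 and 1.44 (exact permutation p = 0.171 and 0.143, adjusted 0.171 each), where 35 assignments allow no p below 0.0286. Leaving out swimming 1, 3, 4, 5 or 6 or control 4, 5 or 6 also ended both calls, with adjusted p up to 0.0877, while the direction was kept in all 12 such fits of these ratios.

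**Figure D2:**
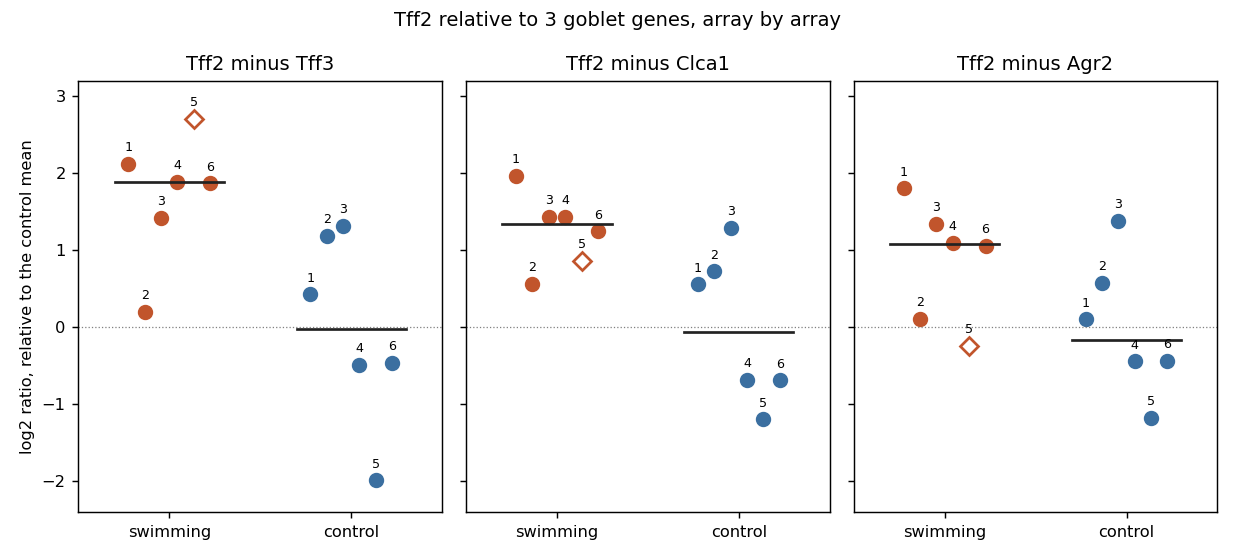
Log2 ratio of Tff2 to Tff3, Clca1 and Agr2 in each array, relative to the control mean (dotted line at 0), with swimming arrays on the left and control arrays on the right of each panel; lines are group medians and the open diamond is swimming 5. In the ratio to Tff3, 5 of 6 swimming arrays lie above every control array, and in the ratio to Agr2 the groups overlap widely.

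Between rats, Tff2 varied far more than the goblet members Tff3, Clca1 and Agr2. Retnlb, a goblet product outside the members, varied more than Tff2 over the 11 arrays other than swimming 5 (SD 1.99 against 1.23). Over 8 samples, which leave out swimming 5 and average each near-identical pair, the SD was 1.36 log2 for Tff2, 0.73 for Tff1, 0.57 for Agr2, 0.49 for Clca1 and 0.28 for Tff3. The span from the lowest to the highest sample was 4.42 for Tff2 and 0.77 for Tff3. Among probes brighter than the median probe, 99.7% had a smaller SD than Tff2 and 71.5% a smaller SD than Tff3.

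Of 10 pairs of members, 1 pair was correlated over these 8 samples after adjustment. Clca1 and Agr2 had Pearson's r = 0.91 (exact permutation p = 0.0019, adjusted 0.0193 over the 10 pairs) and Spearman's rho = 0.86 (exact permutation p = 0.0107, adjusted 0.107). Without the 2 samples farthest from the Clca1 median r was 0.72. Of the 8 samples, swimming 1 and control 2 read highest for both genes, and control 5 lowest. Stroma and smooth muscle genes also averaged highest in swimming 1 (8.23) and control 2 (8.14), against 6.83 to 7.55 in the other arrays, and the part of these cells was not tested. Agr2 had a higher r, 0.96 to 0.99, with the 5 genes outside the members that are named below as most like it. The share of all probe pairs with an r this high was not measured.

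Tff2 and Agr2 had r = 0.78 (exact permutation p = 0.0209, adjusted 0.0820) and rho = 0.79 (p = 0.0279, adjusted 0.140, exact permutation), with r = 0.47 without the 2 samples farthest from the Tff2 median. Tff1 and Tff2 had r = 0.76 (exact permutation p = 0.0246, adjusted 0.0820) and rho = 0.71 (exact permutation p = 0.0576, adjusted 0.192), with r = 0.55 without the 2 samples farthest from the Tff1 median. Tff2 and Clca1 had r = 0.72 (exact permutation p = 0.0433, adjusted 0.108) and rho = 0.60 (exact permutation p = 0.132, adjusted 0.220), with r = 0.28 without the 2 samples farthest from the Tff2 median. Tff2 and Tff3 had r = 0.11 (exact permutation p = 0.796, adjusted 0.796) and rho = 0.29 (exact permutation p = 0.501, adjusted 0.626). The remaining 5 pairs had r between -0.22 and 0.51, with adjusted exact permutation p between 0.381 and 0.694, and rho between -0.048 and 0.67, with adjusted exact permutation p between 0.192 and 0.977. The r values of Tff2 with Agr2, Tff1 and Clca1 were all smaller without these samples, but the narrower range by itself tends to lower r.

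**Figure D3:**
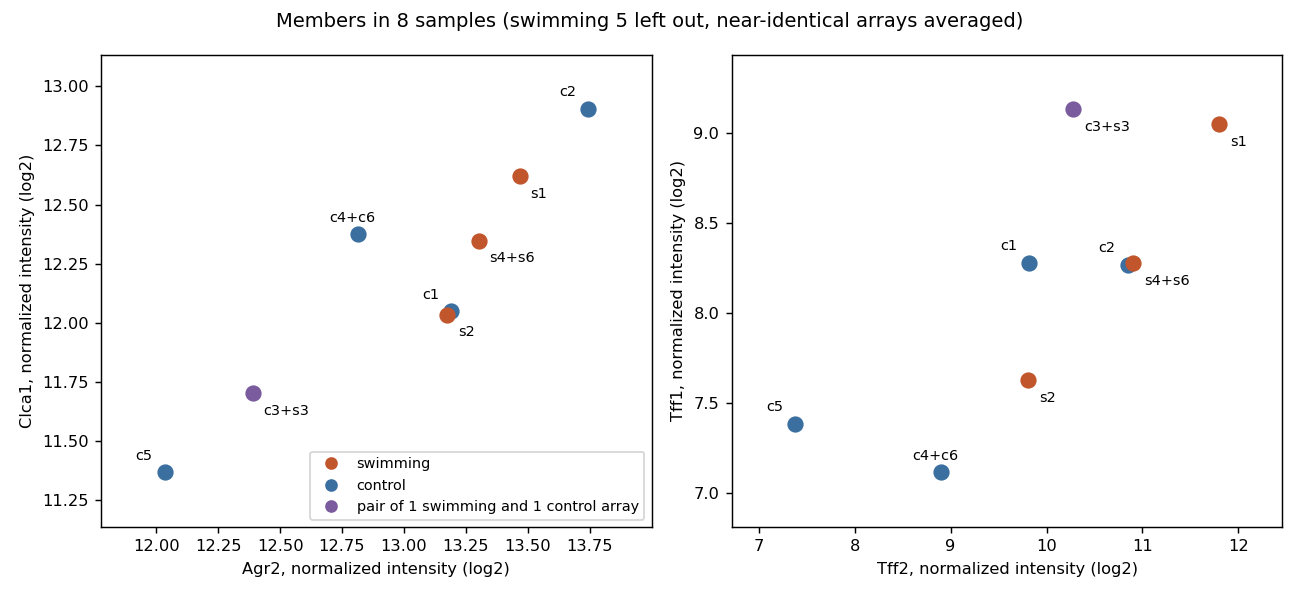
Normalized log2 intensity of Clca1 against Agr2 (left) and of Tff1 against Tff2 (right) in 8 samples, each point 1 array or the mean of a near-identical pair, with s for swimming and c for control. Clca1 and Agr2 rise together from control 5 to control 2, while the Tff1 and Tff2 points scatter more widely.

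The genes most like Tff2 over the 8 samples, among 2024 other named probes that were brighter than the median and had an SD of at least 0.3 log2, were Nnt (r = 0.94), Cad (0.91), Hsp90aa1 (0.91), Vcam1 (0.91) and Ccng1 (0.90). Nnt is the mitochondrial nicotinamide nucleotide transhydrogenase, Cad an enzyme of pyrimidine synthesis, Hsp90aa1 a chaperone, Vcam1 an adhesion molecule of endothelium and Ccng1 cyclin G1. For Agr2, taken after its values were seen in place of the unnamed Muc2, they were Gnpat (0.99), Rps4x (0.97), Ppia (0.97), Rnase4 (0.96) and Nme2 (0.96). With 8 samples and so many probes such r values describe a ranking only.

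Other genes of the mucus-secreting lineage gave no call between swimming and control rats. Of 6 measured secreted goblet products of 8 listed, 3 read higher and 3 lower, with a median difference of 0.040. Spink4, a protease inhibitor of goblet granules, averaged 12.25 in swimming and 11.46 in control arrays (difference 0.78, SE 0.47, limma adjusted p = 0.911; 0.44 without swimming 5). Zg16, a lectin of goblet mucus, averaged 14.78 and 14.91 (difference -0.13, SE 0.076, limma adjusted p = 0.911). Of 12 measured genes of mucin glycosylation and folding of 16 listed, 10 read higher with all arrays and 6 without swimming 5, and the median difference was 0.15 and -0.0077. Fut2, a fucosyltransferase of secretory epithelium, differed by 0.41 (SE 0.18; 0.24 without swimming 5) and C1galt1c1, the chaperone of the core mucin galactosyltransferase, by 0.36 (SE 0.18). Of 10 measured regulators of the secretory lineage of 11 listed, 9 read higher, by a median of 0.15, and 8 without swimming 5, by a median of 0.061. Notch1, the receptor that restrains secretory fate, differed by 0.36 (SE 0.13; limma adjusted p = 0.911, unadjusted 0.0154). Of 3 measured genes of the membrane mucin list of 11, 1 read higher, Muc1, by 0.41 (SE 0.24; 0.17 without swimming 5).

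**Figure D4:**
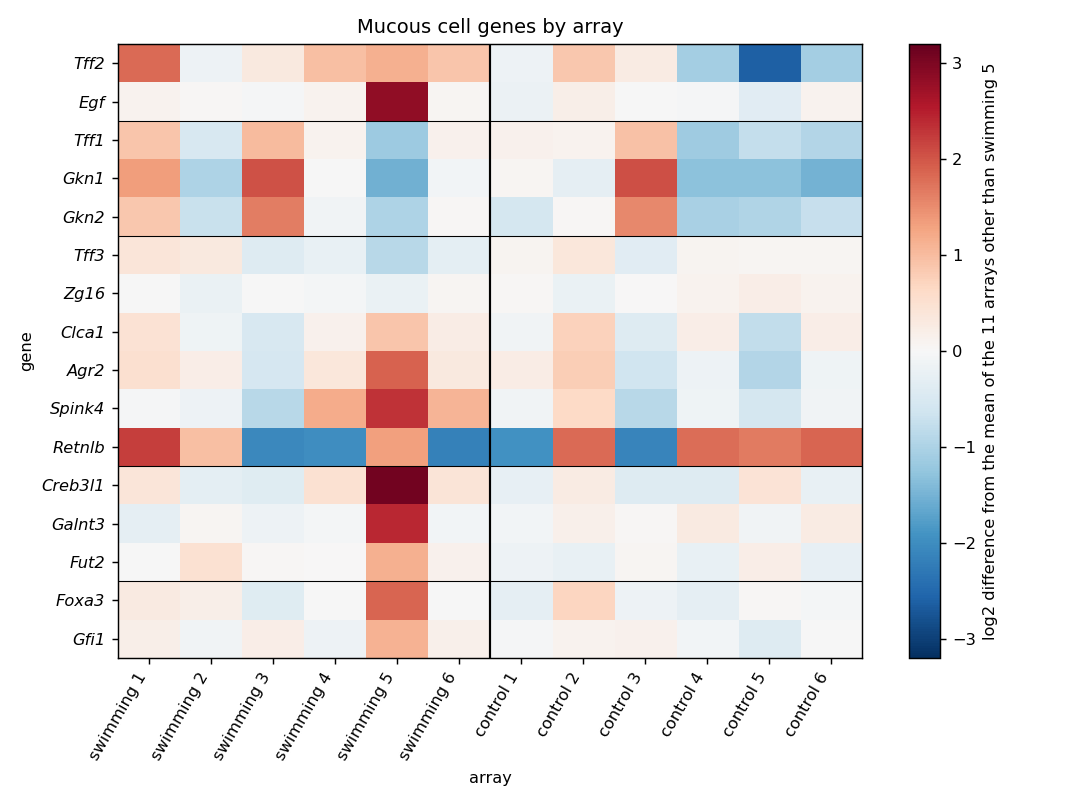
Genes of Brunner gland, stomach surface, goblet product, mucin processing and secretory regulator lists (top to bottom, separated by lines) in the 6 swimming arrays (left) and 6 control arrays (right), as log2 difference from the mean of the 11 arrays other than swimming 5. Swimming 5 is high for Creb3l1, Egf, Galnt3, Spink4, Agr2 and Foxa3, while Tff1, Gkn1 and Gkn2 are high together in swimming 1, swimming 3 and control 3.

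The array labelled swimming 5 was high for Agr2 and Clca1 and low for Tff3 and Tff1. It was singled out by its values and is a single array, so no test was made. Of the 5 members 2 lay above and 2 below every other array, where 16.9% of all probes lay above and 14.5% below (31.4% in either direction). Agr2 read 14.84 in swimming 5 against 12.97 ± 0.53 over the remaining arrays (SD, n = 11). It was the 1 member beyond every other array by more than 1 log2, as were 1.62% of all probes upward and 1.9% downward. Clca1 read 13.06 against 12.17 ± 0.45, just above the highest other array at 12.90. Tff3 read 13.21 against 14.09 ± 0.29, below the lowest other array at 13.67. Tff1 read 6.99 against 8.15 ± 0.76, close to the lowest other array at 7.02. Tff2 read 11.13 against 9.98 ± 1.23, within the range of the others and exceeded by 1 of them.

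Genes of mucin synthesis and secreted goblet products read higher in this array by the median of each list, and the lists, which share Agr2, were not tested against each other. The median difference of swimming 5 from the other arrays was 0.81 log2 for glycosylation and folding genes and 1.10 for secreted products. Of the 12 glycosylation and folding genes 8 lay above every other array and 0 below. Creb3l1, a transcription factor of the secretory apparatus anchored in the endoplasmic reticulum, read 11.63 against 8.53 ± 0.39 (SD, n = 11). Galnt3, which starts mucin O-glycosylation, read 12.22 against 9.82 ± 0.18, and Fut2 read 10.56 against 9.42 ± 0.23. Of the 10 lineage regulators 6 lay above every other array, among them Foxa3 at 9.68 against 7.80 ± 0.30 and Gfi1 at 8.10 against 6.99 ± 0.19. Foxa1, dimmer than the median probe, Foxa2, Klf4 and Hes1 also lay above. Only 1 of the 10 did so by more than 1 log2. Atoh1 read 6.91, within the range of the others, whose highest was 7.01. Of the 6 secreted products 3 lay above, with Spink4 at 13.98 against 11.66 ± 0.71, and 1 lay below, Tff3. Of 3 measured Brunner gland genes 1 lay above, Egf at 9.35 against 6.52 ± 0.16, while Tff2 and Aqp5 lay within the range of the others. Of 3 measured genes of the membrane mucin list 2 lay above, Muc1 at 7.94 against 6.36 ± 0.19 and Muc20. Muc20 was dimmer than the median probe. In that list 1 lay below, the cadherin-related Cdhr5, at 12.92 against the lowest other array at 12.95. Gkn1 read 6.01 against 7.56 ± 1.30, below the lowest other array at 6.06. Enterocyte genes averaged 8.54 in swimming 5, against 12.15 to 12.53 in the other arrays, and large intestine genes 9.58 against 6.92 to 7.34. The part of the tissue source in the member values of this array was not tested.

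**Figure D5:**
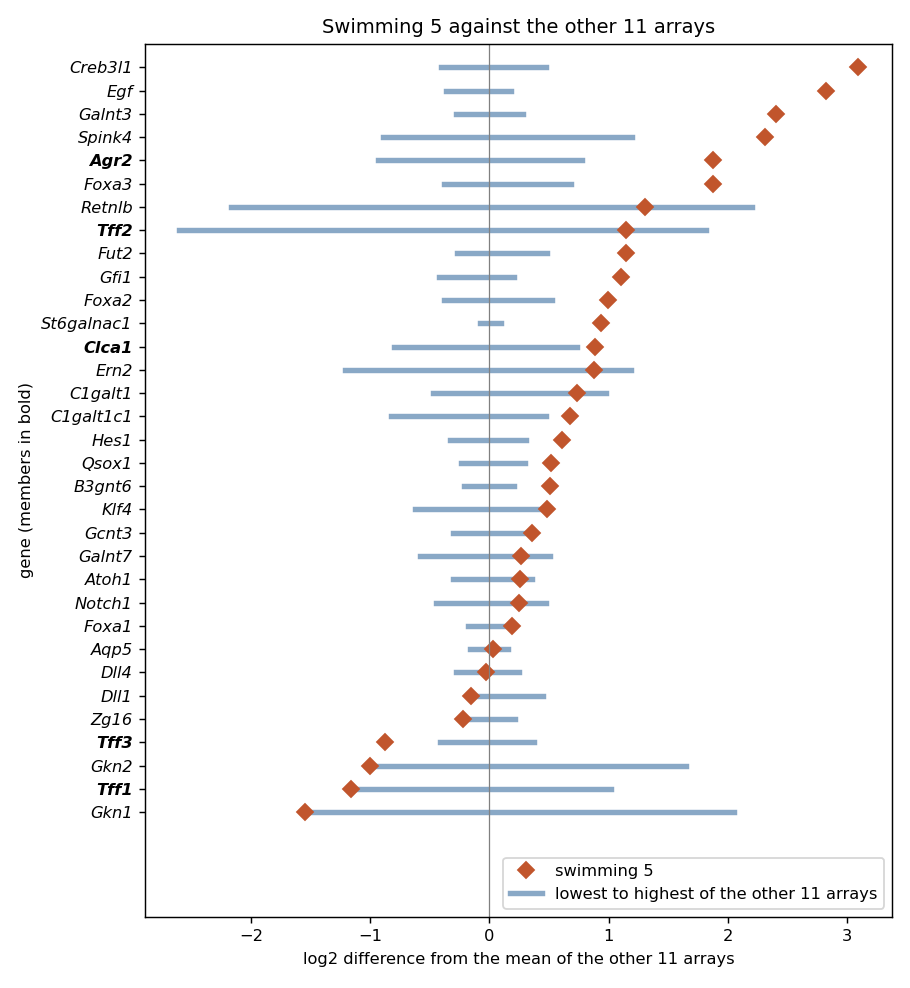
For each gene of the Brunner gland, stomach surface, goblet product, mucin processing and secretory regulator lists, the log2 difference of swimming 5 (diamond) and the span of the other 11 arrays (bar) from the mean of those 11 arrays, with members in bold. Agr2 and Clca1 lie above the bar and Tff3 below it, Tff1 lies just below it, and Tff2 lies within it.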

How the data were processed

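The authors deposited an average signal per probe, an intensity on a linear scale per the file headers, for 22523 probes on 12 single-colour Illumina bead arrays. It holds 0 values below 0 and different medians per array, so it was taken as neither background-subtracted nor scaled. A second deposited table of processed intensity, with no method named in the labels, has 26.2 to 26.3% of values below 0 and a median of 16 in every array. It was used as an alternative, floored at 16.

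Starting from the raw table, limma 3.58.1 (R 4.3.3) applied normexp with offset 50 and then quantile normalization, and values are log2. Swimming minus control was fitted with lmFit and eBayes over all probes (two-sided, Benjamini-Hochberg). The fit was tested on simulated data with independent noise in each array, which do not represent the near-identical arrays. The labels describe 12 rats, but the near-identical arrays may not be independent. Probes were named from the platform annotation, where 13752 of 13793 named probes matched GRCr8 by Entrez identifier. No detection p-values were used, and no build is named for the arrays. Near-identical arrays are those whose spread of log2 differences was smaller over 4869 bright probes (mean above 8) than over 5192 dim ones (mean under 6.1). Ratios and correlations used exact permutation tests.

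All 5 measured members are named. Other listed genes are named by smallest p or largest difference of swimming 5, up to 4 each, and genes like Tff2 by the 5 highest r. Retnlb was described for its spread after its values were seen. Members, lists and tests were chosen with earlier results of these data known.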

Additional observations from a re-analysis of the deposited data

How the results depend on the processing

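Over 22 alternatives each, the fitted differences of the 5 members kept their direction and none was called. Tff2 ranged from 1.07 to 1.76, Tff1 from 0.17 to 0.61, Tff3 from -0.36 to -0.013, Clca1 from 0.055 to 0.36 and Agr2 from 0.31 to 0.79. No alternative called any of the 22523 probes, and the lowest adjusted p of any probe was 0.115. The replicate numbers were not taken to pair the rats. Deviations of same-numbered arrays correlated above 0.1 in 3 of 6 pairs, from -0.023 to 0.73, with the near-identical control 3 and swimming 3 among them. The control array with the highest correlation had the same number for swimming 3, 4 and 6, and another number for swimming 1, 2 and 5. With the number as a replicate block, Tff2 differed by 1.46 (limma adjusted p = 0.864), and 0 probes were called. With that block the Tff2 ratios differed by 1.70 to Tff3 and 1.25 to Clca1 (exact sign-flip permutation p = 0.0938 each, adjusted 0.125) and were no longer called. The same was so in the restricted comparison (1.61 and 1.44) and with pairs averaged (1.57 and 1.10). Both ratios stayed called without background correction and with normexp offset 16, median scaling, cyclic loess or the processed table. Their adjusted exact permutation p then lay between 0.0325 and 0.0357. Leaving out 1 array gave 1.31 to 2.00 for Tff3, 1.01 to 1.51 for Clca1 and 0.63 to 1.14 for Agr2. Each of the first 2 ratios lost its call in 8 of 12 such fits, and the ratio to Agr2 was called in 1, without control 3. Median scaling brought the correlations of Tff2 with Tff1 (0.84), Clca1 (0.83) and Agr2 (0.82) past the threshold (adjusted exact permutation p = 0.0278 each) and turned Tff1 with Tff3 to 0.195. Cyclic loess turned Tff2 with Tff3 to -0.0080. With swimming 5 included, r turned to 0.25 for Tff1 with Tff3, -0.11 for Tff1 with Clca1, -0.21 for Tff1 with Agr2, -0.16 for Tff2 with Tff3, -0.15 for Tff3 with Clca1 and -0.36 for Tff3 with Agr2. The cause was not tested. A slide block and other probes per gene were not run, since no slides were given and each member has 1 probe.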

Other observations

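Retnlb, the goblet cell product resistin-like beta, stood at widely separated levels in single rats. Its log2 intensity was 11.01 in swimming 1, 9.77 in swimming 2, 6.74 in swimming 3, 6.81 in swimming 4, 10.11 in swimming 5 and 6.64 in swimming 6. In control arrays it was 6.86 in control 1, 10.61 in control 2, 6.69 in control 3, 10.59 in control 4, 10.46 in control 5 and 10.68 in control 6. No array lay between 6.86 and 9.77, and both arrays of each near-identical pair read alike. The fitted difference between groups was -0.80 (SE 1.03, limma adjusted p = 0.922). Leaving out swimming 5, the 4 arrays with the lowest Tff3 (swimming 3, 4 and 6 and control 3, at 13.67 to 13.84) were also low for Retnlb, while control 1, low for Retnlb, read 14.18 for Tff3. These 4 arrays form 2 of the near-identical pairs, and the relation was not tested.

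Rnase4, a secreted ribonuclease that ranked among the genes most like Agr2, read 12.22 in swimming 5, against 9.18 to 10.40 in the other 11 arrays, and Nme2 read 10.26, against 10.61 to 11.63. The likeness to Agr2 was measured without swimming 5.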
